A study of Mus musculus with 2 samples.

Results

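The cells described here were non-cycling basal squamous cells of the mouse cervix that held many transcripts of Igfbp5, an insulin-like growth factor binding protein. They were selected on raw unique molecular identifiers (UMIs, the counted transcript molecules of a droplet single-cell library) in both libraries of the series. Barcodes entered with 200 or more genes detected and no more than 20% of UMIs from mitochondrial genes. The gate for quiescent basal cells then asked for at least 5 UMIs of Krt5 and Krt14 together, at least 2 of Col17a1, Itga6, Itgb4 and Trp63, at most 2 of Krt10 and Krtdap, at most 4 of Krt8 and Krt18, and at most 1 of Mki67, Top2a, Birc5, Ube2c and Cenpf. Within this gate a cell was Igfbp5-high with at least 3 Igfbp5 UMIs and Igfbp5-zero with 0. Of 16221 barcodes, 13981 passed the filter, 3435 fell in the gate and 98 were Igfbp5-high, with 2 of these in the control library and 96 in the progesterone library. The gate also held 2875 Igfbp5-zero cells (854 control, 2021 progesterone) and 462 cells with 1 or 2 Igfbp5 UMIs (51 control, 411 progesterone).

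Both libraries came from C57BL6/129 females ovariectomized at 7 to 8 weeks of age and left for 2 weeks to recover, and each was 1 pool of the cervices of 9 mice, cut below the transition zone and freed of vaginal tissue. Cells were released with a protease that works in the cold and read with 10x 3′ chemistry, which counts the ends of transcripts. Control mice stayed untreated for 15 days, with neither oil injection nor pellet. The other group had estradiol (E2) in corn oil under the skin, 100 µg a day on 2 days, and then a 25 mg pellet with 21-day release, estimated to give 1 mg of progesterone a day. The E2 priming, the vehicle, the pellet, the progesterone and the library itself therefore cannot be told apart, and with 1 library per group no difference between groups could be tested. Cells are not replicates of a treatment, so the values below are sums of UMIs over the cells of a set with exact 95% intervals, which cover counting error alone and not the spread between mice.

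The basal layer of a stratified squamous epithelium rests on the basement membrane, to which hemidesmosomes anchor it, and holds the cells that renew the tissue. Cells that leave the layer switch from the basal keratins Krt5 and Krt14 to suprabasal keratins such as Krt13, a step in which Notch signalling takes part. Insulin-like growth factor (IGF) binding proteins are secreted carriers that hold IGFs away from, or bring them to, the receptor Igf1r, and Igfbp5 also binds matrix. The markers given for these cells, beside Igfbp5 and Krt5, were Dlk2, a membrane protein related to Notch ligands, Nbl1, a secreted antagonist of bone morphogenetic proteins (BMPs), Sparc, a matrix-binding glycoprotein, and Il1r2, a decoy receptor for interleukin 1.

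In the mm10 build (GRCm38) that the submitters' processing notes name, and by GENCODE annotation, Igfbp5 lies at chr1:72857932-72874884, minus strand, and Dlk2 at chr17:46297421-46303271, plus strand. Nbl1 lies at chr4:139082284-139092993, minus strand, Sparc at chr11:55394500-55423183, minus strand and Il1r2 at chr1:40074079-40125231, plus strand. Krt5 lies at chr15:101707070-101712898, minus strand. Each is annotated as a protein-coding gene, and 3′ counting reads the whole gene as 1 value with no exon resolved.

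The 2 libraries held 21658684 UMIs over 5368 control barcodes and 44811069 over 10853 progesterone barcodes. The 96 Igfbp5-high cells of the progesterone library had a median of 4714 UMIs, against 4317 in the Igfbp5-zero cells, and 475877 UMIs in all. Their median mitochondrial share was 5.85%, against 6.57% in the zero cells. The libraries shared 19 barcodes, of which 0 were Igfbp5-high. Doublets were kept. Leaving out the barcodes with the highest doublet scores left 94 and 2 Igfbp5-high cells.

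The label was checked on markers outside the gate. Krt15, a keratin of basal cells, was detected in 96 of the 96 progesterone cells, with 2, 17 and 56 UMIs as lowest, median and highest. Fibroblasts had the highest Igfbp5 level of the gated sets in both libraries, but of 7 fibroblast markers the 96 cells held 1 Dcn UMI and had Col1a1, Col1a2, Col3a1, Lum, Pdgfra and Col6a3 at 0. The Igfbp5-zero cells held 470 fibroblast UMIs, or 50.6 UMIs per 1000000 of the set (CPM) against 2.10 in the Igfbp5-high cells. Smooth muscle markers gave 2 UMIs, endothelial markers 1 and melanocyte or Schwann cell markers 1. Leukocyte markers summed to 250.1 CPM in Igfbp5-high and 364 in Igfbp5-zero cells, and 92% of the S100a9 UMIs of the former lay in 1 cell. Luminal markers, which include Krt7 and Epcam, were at 693 and 685 CPM. The word quiescent rests on the 5 cycling genes of the gate. Of 20 other proliferation genes 16 had enough UMIs to compare. Of these, 13 were above the level of the Igfbp5-zero cells, with none 2-fold higher or lower. Their median log2 ratio was 0.33, beside 0.08 over all 9194 genes compared, so the median gene was also slightly above the zero cells.

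Igfbp5-high cells were a small class that was more common in the progesterone library. They made up 3.8% of the 2528 gate cells with progesterone (exact Clopper-Pearson 95% interval 3.09 to 4.62%) and 0.221% of the 907 in the control (0.0267 to 0.794%). At least 1 Igfbp5 UMI was found in 20.1% (18.5 to 21.7%) and 5.84% (4.41 to 7.57%) of the gate. With every cell thinned to 2000 UMIs, which left out 111 and 131 shallower cells, the shares with a UMI were 12.1% with progesterone and 4.51% in the control. At least 2 UMIs after thinning were found in 2.61% and 0.258%. The intervals of the libraries did not overlap on any of these measures, and depth in the gate was alike, at medians of 4342 and 4080 UMIs. The cells in the 2 gates were less alike. A Krt13 or Krt6a UMI was held by 29.0% of zero cells with progesterone and 64.8% in the control. The minimum of 2 UMIs of Col17a1, Itga6, Itgb4 and Trp63 was just met by 14.5% and 34.8%. The limit of 4 Krt8 and Krt18 UMIs was reached by 12.2% of zero cells with progesterone and 3.04% in the control. With at most 1 such UMI the gates fell to 1332 progesterone and 778 control cells, with 61 and 2 Igfbp5-high cells. The shares were then 4.58% and 0.257%. The part of the other differences between the gates in the shares was not tested.

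Luminal cells and leukocytes, 2 sets that were not squamous, held an Igfbp5 UMI in a smaller share of cells than the gate. Whether these UMIs came from free transcripts was not tested. In the progesterone library an Igfbp5 UMI was found in 7 of 671 luminal cells (1.04%, or 0.606% after thinning), which had a median of 5494 UMIs. It was found in 4 of 548 leukocytes (0.730%), which had a median of 893, and in 2 of the 112 deep enough to thin. In the control it was found in 0 of 56 luminal cells, of which the 52 deep enough to thin allow a share of up to 5.77%, and in 1 of 414 leukocytes (0.242%), at medians of 4570.5 and 720 UMIs. The control luminal cells were thus too few to set a bound under the share in the control gate.

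The counts per cell had no gap at the threshold. With progesterone, 317 gate cells held 1 Igfbp5 UMI, 94 held 2, 45 held 3, 24 held 4 and 27 held 5 to 12. In the control, 43 held 1, 8 held 2, 1 held 3 and 1 held 4. The members just inside the threshold were thus the 46 cells with 3 UMIs and those just outside the 102 cells with 2. The 96 progesterone cells carried 415 of the 920 Igfbp5 UMIs of their gate (45.1%), and the 2 control cells 7 of 66 (10.6%). A cell with 0 UMIs at these depths may still have held Igfbp5 transcripts that were not captured.

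**Figure D1:**
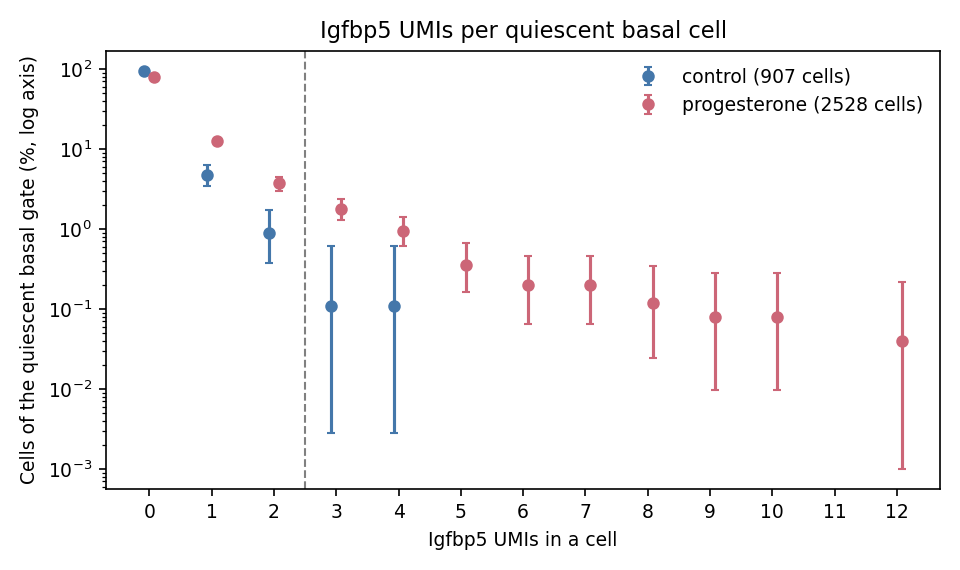
Share of quiescent basal cells (%, log axis) with each number of Igfbp5 UMIs in the control (907 cells) and progesterone (2528 cells) libraries; points are shares, bars exact 95% binomial intervals, and the dashed line the threshold between 2 and 3 UMIs. At 1 UMI and above the progesterone shares lie above the control shares, and counts past 4 were found with progesterone alone.

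Igfbp5 in the gate can be set beside the other cells of the cervix, as levels in CPM over all cells of each set. The order was the same in both libraries: fibroblasts, endothelial cells, quiescent basal cells, cycling squamous cells and Krt10 and Krtdap suprabasal cells, with leukocytes and luminal cells last. Fibroblasts were at 601 in the control and 644 with progesterone, a ratio of 1.07 (0.750 to 1.57). Endothelial cells were at 148 and 289, a ratio of 1.96 (0.764 to 6.4). The intervals of both stromal ratios held 1.

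The quiescent basal gate gave the clearest difference between libraries. Its cells stood at 16.7 and 78.8, a ratio of 4.71 (3.67 to 6.14). Cycling squamous cells stood at 15.9 and 40.4, a ratio of 2.54 (1.42 to 4.63), with a UMI in 7.04% and 11.0% of 213 and 154 cells. The intervals of these shares overlapped, at 3.99 to 11.3% and 6.56 to 17.1%. So did those of the thinned shares, 2.07% (0.568 to 5.22%) and 3.01% (0.825 to 7.52%). The 35 progesterone UMIs of the cycling cells lay in 17 cells. Suprabasal cells stood at 2.99 and 12.9, but the 29 progesterone UMIs lay in 4 of 311 cells, a lower share of cells than in the control (1.29% against 2.19%), so no order is read for them. In the control the quiescent and cycling values had overlapping intervals, so these neighbours in the order did not differ beyond counting error, nor did suprabasal cells, leukocytes and luminal cells. With progesterone the quiescent and cycling values did differ, the interval of quiescent cells being 73.8 to 84.1 and that of cycling cells 28.1 to 56.1. The cycling set, unlike the quiescent gate, was not gated on Col17a1, Itga6, Itgb4 and Trp63.

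**Figure D2:**
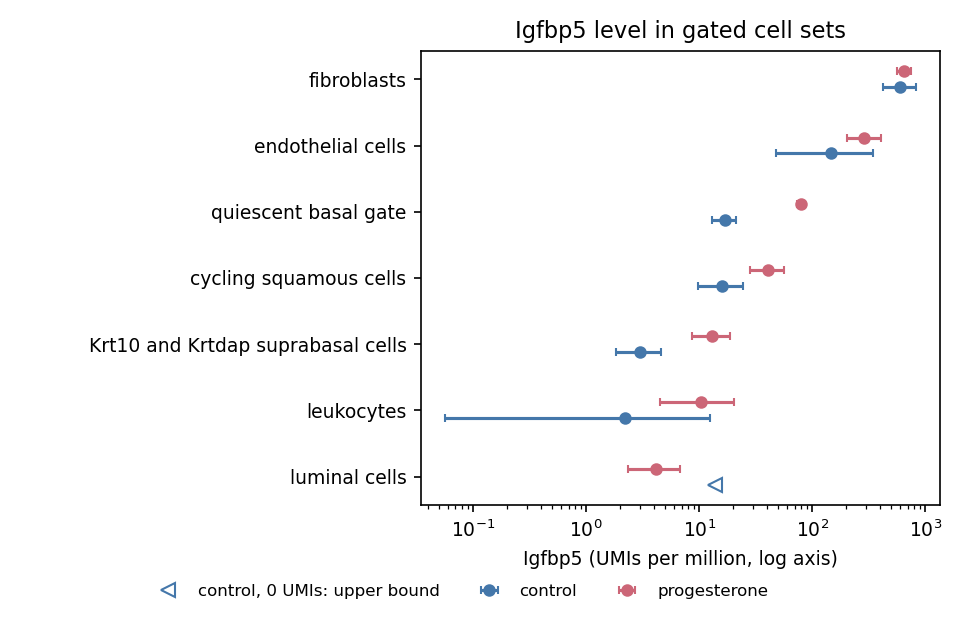
Igfbp5 level (CPM, log axis) in 7 gated cell sets of the control and progesterone libraries; points are summed levels, bars exact 95% Poisson intervals, and the open triangle the upper bound for control luminal cells, which held 0 UMIs. Fibroblasts are near 600.7 and 644 in the 2 libraries, and quiescent basal cells at 16.7 and 78.8.

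The control library contributed 2 cells, described singly. The first held 3 Igfbp5 UMIs among 4717, with 52 of Krt15, 10 of Apoe, 5 of Pik3r1, 4 of the growth factor gene Nrtn, 3 of Sparc and 2 of Krt13. The second held 4 Igfbp5 UMIs among 3127, with 9 of Krt15, 7 of Apoe, 2 of Nrtn, 1 of Pik3r1, 1 of Krt13 and 0 of Sparc. Both had Dlk2, Nbl1, Il1r2 and Krt6a at 0, so of the markers beside Igfbp5 and Krt5 only Sparc was seen in the control pair, in 1 cell. Together the pair held 7844 UMIs, at which 0 UMIs allows a level of up to 382 CPM (3 UMIs), above the level of each of these 4 genes in the 96 progesterone cells.

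The 5 markers given with Igfbp5 did not behave alike across Igfbp5 counts in the progesterone library. Dlk2 had 0, 0 and 3 UMIs as lowest, median and highest over the 96 cells and was detected in 40 of them, against 350 of 2021 Igfbp5-zero cells. Summed, its level was 116 CPM in Igfbp5-high and 49.1 in Igfbp5-zero cells, a ratio of 2.35 (1.75 to 3.12). Cells with 1 or 2 Igfbp5 UMIs were at 95.5, a ratio of 1.95 (1.63 to 2.32) to the same zero cells. Dlk2 was thus already higher at 1 UMI (98.4 CPM) and did not climb further beyond the intervals at 3 or 4 (123) or at 5 or more (97.7). After thinning to 2000 UMIs it was detected in 8.85% of zero cells, 19.6% of cells with 1 or 2 and 16% of Igfbp5-high cells, and in 0 of 112 leukocytes. The intervals of these shares overlapped for zero cells (7.62 to 10.2%) and Igfbp5-high cells (9.22 to 24.95%). That of cells with 1 or 2 (15.8 to 23.8%) lay above that of zero cells.

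Nbl1 ranged over 0, 1 and 4 UMIs per Igfbp5-high cell and was detected in 56 of the 96. Its level was 183 CPM against 114 in zero cells, a ratio of 1.61 (1.27 to 2.00), and the thinned share with a UMI was 35.1% against 19.3%. Sparc ranged over 0, 1 and 3 UMIs, at 166 CPM against 129.5, a ratio of 1.28 (1.01 to 1.61). Its thinned share was 23.4% against 22.7%, so Sparc set the Igfbp5-high cells least apart of the 4 secreted or membrane markers. Sparc was at 206 CPM in cells with 1 Igfbp5 UMI and 166 in cells with 3 or 4.

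Il1r2 ranged over 0, 1 and 7 UMIs, at 359 CPM against 242, a ratio of 1.48 (1.26 to 1.73). The higher level was found in the 69 cells with 3 or 4 Igfbp5 UMIs, at 408 CPM. The 27 cells with 5 or more stood at 233, and those with 1 and 2 at 259.7 and 248, levels near that of the zero cells. The thinned share with an Il1r2 UMI was 41.5% (31.4 to 52.1%) in Igfbp5-high and 30.3% (28.2 to 32.4%) in zero cells, with overlapping intervals. Among leukocytes the thinned share was 3.57% with progesterone and 17.0% (7.65 to 30.8%) in the control, where zero cells were at 10.3% (8.20 to 12.8%). Krt5, which the gate used, was lower in Igfbp5-high than in zero cells with progesterone, at 2255 against 2872 CPM, a ratio of 0.785 (0.738 to 0.834). Its partner Krt14 had a ratio of 0.671 (0.642 to 0.701).

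Few cells held the markers together. At 2000 UMIs, 2 or more of Dlk2, Sparc, Nbl1 and Il1r2 were detected in 26.6% of Igfbp5-high cells (18.0 to 36.7%), 27.3% of cells with 1 or 2 Igfbp5 UMIs and 21.2% (19.4 to 23.1%) of zero cells. In the control they were found in 10.2% of cells with an Igfbp5 UMI and 6.19% of zero cells. The intervals of Igfbp5-high and zero cells overlapped on this count. None of the 4 was detected in 22.3% of Igfbp5-high cells (21 of 94) and 44.5% of zero cells (854 of 1920), and exactly 1 in 51.1% and 34.3%.

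**Figure D3:**
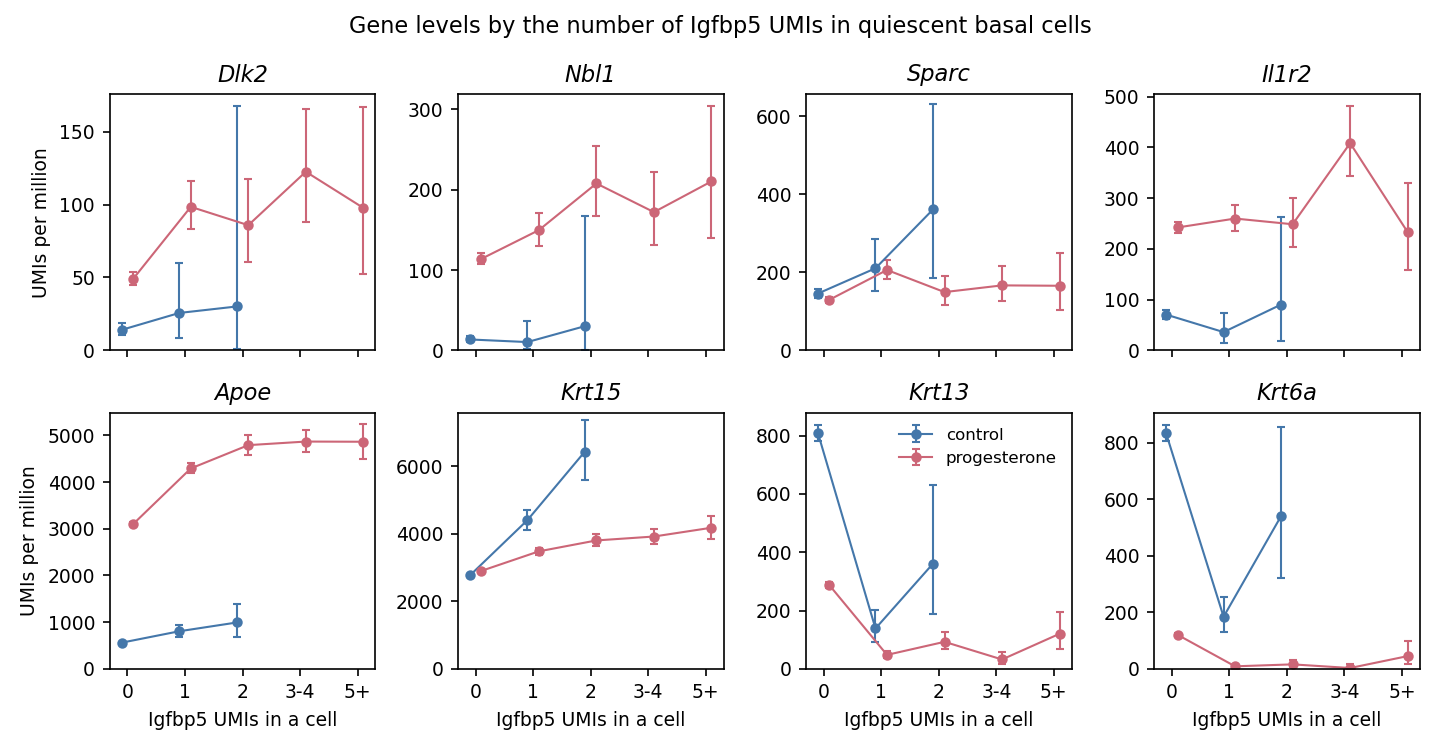
Levels of 8 genes (CPM, linear axes from 0) in quiescent basal cells by their number of Igfbp5 UMIs, for the control and progesterone libraries; points are summed levels and bars exact 95% Poisson intervals, and the 2 control cells with 3 or 4 are not drawn. Dlk2, Apoe and Krt15 are higher from 1 Igfbp5 UMI on with progesterone, and Krt13 and Krt6a lower.

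Within the progesterone library the Igfbp5-high cells held less Krt13 and Krt6a, keratins of differentiating squamous cells, than the Igfbp5-zero cells, and more of Dlk2, the laminin chain gene Lama3 and the ubiquitin ligase gene Wwp1. Krt13 and Krt6a were 5.05-fold and 8.20-fold lower, and Dlk2, Lama3 and Wwp1 a little over 2-fold higher. Of 9194 genes with at least 50 UMIs over both sets, 210 (2.28%) were at least 2-fold higher and 721 (7.84%) at least 2-fold lower. Since the 96 cells are few, sparse genes fill these counts: with at least 200 UMIs a gene, 4924 genes gave 18 higher and 134 lower, and with at least 500, 2072 genes gave 2 higher, Dlk2 and Wwp1, and 25 lower. Of the 721 lower genes, 77 had 0 UMIs in the 96 cells.

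By a rule added after these values were seen, the genes highest by the lower bound of the ratio were Plekhs1, Gprc5c, Ccdc68, Ppp1r9a, Cpq, Gna12, Dlk2, Fam124a, Rilpl2, Wwp1, Cables2 and Dus2. Most rested on few molecules. Plekhs1 had the highest ratio, 4.03 (2.03 to 7.39), from 13 UMIs. Gprc5c, an orphan receptor of the G protein-coupled class, had a ratio of 3.25 (2.00 to 5.08) from 23, and Cpq, a secreted carboxypeptidase, one of 2.96 (1.84 to 4.57) from 24. Wwp1 was better counted, at 130.3 against 58.7 CPM, a ratio of 2.22 (1.68 to 2.89). The other 7 genes beside Dlk2 had 11 to 17 UMIs in the 96 cells and ratios from 3.11 to 3.84.

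Abundant genes gave smaller and better resolved differences. Apoe, the lipid carrier apolipoprotein E, had 2, 22 and 85 UMIs per Igfbp5-high cell and a median of 12 per zero cell. Its level was 4865 against 3101 CPM, a ratio of 1.57 (1.5 to 1.64). Krt15 stood at 3991 against 2900.0, a ratio of 1.38 (1.31 to 1.44). Both genes were present in the zero cells as well, and the difference was one of amount.

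Further members of this group were Pik3r1, the regulatory subunit of the phosphoinositide 3-kinase that acts below Igf1r, at 336 against 188 CPM and a ratio of 1.79 (1.51 to 2.11). Igfbp7, a secreted relative of the IGF binding proteins, had a ratio of 1.66 (1.35 to 2.03), and Ltbp4, a matrix protein that stores latent TGF-beta, one of 1.60 (1.37 to 1.87). Nrtn, the neurotrophic factor neurturin, had a ratio of 1.53 (1.35 to 1.72), and Bcam, a laminin receptor, one of 1.40 (1.17 to 1.68). Cells with 1 or 2 Igfbp5 UMIs, set against the same zero cells, had ratios of 1.42 for Apoe, 1.23 for Krt15, 1.58 for Pik3r1, 1.51 for Igfbp7 and 1.29 for Ltbp4. Each of the 5 was nearer to 1 than in Igfbp5-high cells. Those of Pik3r1 and Igfbp7 lay inside the intervals of their Igfbp5-high ratios. Pik3r1 stood at 346 CPM in cells with 2 Igfbp5 UMIs, 335 with 3 or 4 and 338 with 5 or more.

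The control library gave a second measure in its 53 cells with an Igfbp5 UMI against its 854 zero cells. The 53 cells include the 2 control Igfbp5-high cells, whose ratios to the same zero cells helped choose Krt15, Apoe, Nrtn, Bcam and Pik3r1 for naming. For these genes the measure is therefore not independent of the choice. Krt15 had a ratio there of 1.74 (1.63 to 1.85), Apoe of 1.56 (1.35 to 1.80), Igfbp7 of 1.73 (1.24 to 2.37), Ltbp4 of 1.78 (1.31 to 2.38), Nrtn of 1.79 (1.33 to 2.37) and Bcam of 2.21 (1.71 to 2.82). These 6 genes were higher beside Igfbp5 in both libraries with intervals above 1. Sparc was as well, at 1.63 (1.21 to 2.15). Dlk2, at 1.81 (0.635 to 4.21), Nbl1, at 0.941 (0.188 to 2.91), Il1r2, at 0.601 (0.285 to 1.12), and Pik3r1, at 1.19 (0.785 to 1.73), had intervals that held 1, with 6, 3, 10 and 29 UMIs in the 53 cells.

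Of 12 squamous differentiation genes outside the gate, 5 were at least 2-fold lower in Igfbp5-high cells and 0 higher. Krt13, a keratin of suprabasal mucosal epithelium, was detected in 14 of 96 Igfbp5-high and 495 of 2021 zero cells, at 56.7 against 286 CPM, 5.05-fold (3.46 to 7.68) lower. Krt6a, a keratin of activated and suprabasal keratinocytes, was detected in 3 and 273 cells, at 14.7 against 121 CPM, 8.20-fold (3.97 to 20.4) lower. Single cells held much of this remainder, 44.4% of the Krt13 and 71.4% of the Krt6a UMIs lying in 1 cell. After thinning, Krt13 was detected in 9.57% of Igfbp5-high, 7.20% of intermediate and 16.6% of zero cells, against 4.46% of leukocytes. In the control cells with an Igfbp5 UMI, Krt13 was 4.55-fold (3.36 to 6.32) and Krt6a 3.65-fold (2.79 to 4.87) lower than in its zero cells.

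Several Notch genes were lower too. Notch3, a receptor, had 1 UMI in the 96 cells and 247 in zero cells, a ratio of 0.0790 (0.00199 to 0.444), and at 1 or 2 Igfbp5 UMIs its ratio was 0.178 (0.0803 to 0.343). Hes1, a target gene of Notch signalling, stood at 58.8 against 113 CPM, 1.92-fold (1.32 to 2.90) lower. Jag1, a ligand, was 1.88-fold (1.21 to 3.09) lower, whereas Jag2, another ligand, had a ratio of 1.44 (1.13 to 1.81). Notch1 had a ratio of 0.721 (0.525 to 0.968) and Notch2 of 1.01 (0.498 to 1.85).

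Krt17, a keratin of basal cells under stress, was 2.01-fold (1.67 to 2.45) lower in Igfbp5-high cells, and the desmosomal cadherin Dsc2 2.24-fold (1.24 to 4.53) lower. Sfn (14-3-3 sigma) was 1.65-fold (1.37 to 2.01), the desmosomal protein Perp 1.57-fold (1.38 to 1.81), the calmodulin-like Calml3 1.98-fold (1.33 to 3.07) and the transcription factor Klf4 1.62-fold (1.20 to 2.25) lower. Slc28a3, a nucleoside transporter, had 0 UMIs in Igfbp5-high and 280 in zero cells, at least 4.78-fold lower when 0 is set to a floor of 3 UMIs for the set. Sprr2f, a cornified envelope precursor, had 2 against 480 UMIs, a ratio of 0.0813 (0.00982 to 0.295); its near-identical family members make its own count uncertain.

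The lowest ratios in the progesterone library belonged to the globins Hbb-bs, Hba-a2, Hba-a1 and Hbb-bt and to Dcn, and these were carried by few zero cells. Of the 2021 zero cells, 52 with at least 3 globin UMIs held 98.9% of 62313 globin UMIs, and the 96 Igfbp5-high cells held 30. Hba-a1 and Hba-a2 are near-identical copies, so the split between them is uncertain. Likewise 6 zero cells with at least 5 UMIs held 85.3% of the fibroblast marker UMIs.

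Krt13 and Krt6a were spread more widely: at least 1 UMI was found in 29.0% of zero and 15.6% of Igfbp5-high cells. In the control, 64.8% of zero cells and both Igfbp5-high cells held at least 1. Much of the sum still lay in a minority of zero cells, those with at least 10 UMIs of the 2 genes. With progesterone these were 104 cells (5.15%), which held 70.5% of 3781 UMIs. In the control they were 172 cells (20.1%), which held 77.7% of 6089 UMIs. The zero cells thus included cells with differentiation keratins that the gate, which used Krt10 and Krtdap, had let in. Against the 1435 zero cells without a Krt13 or Krt6a UMI, a comparison added after these values were seen, the ratio of Dlk2 was 1.88 (1.39 to 2.5), that of Apoe 1.32 (1.26 to 1.38) and that of Krt15 1.47 (1.40 to 1.54). Nbl1 was at 1.28 (1.01 to 1.59), Il1r2 at 1.43 (1.22 to 1.68) and Krt5 at 0.935 (0.878 to 0.994), while Sparc, at 1.06 (0.833 to 1.34), had an interval that held 1. Dlk2 therefore passed 2-fold against all zero cells and not against these. The 2 sides were not filtered alike, since the 15 Igfbp5-high cells with a Krt13 or Krt6a UMI were kept. The filtered zero cells also had a lower median depth, 4135 UMIs against 4317 in all zero cells. Hes1 and Krt17 remained lower, at ratios of 0.560 (0.369 to 0.817) and 0.486 (0.399 to 0.587).

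**Figure D4:**
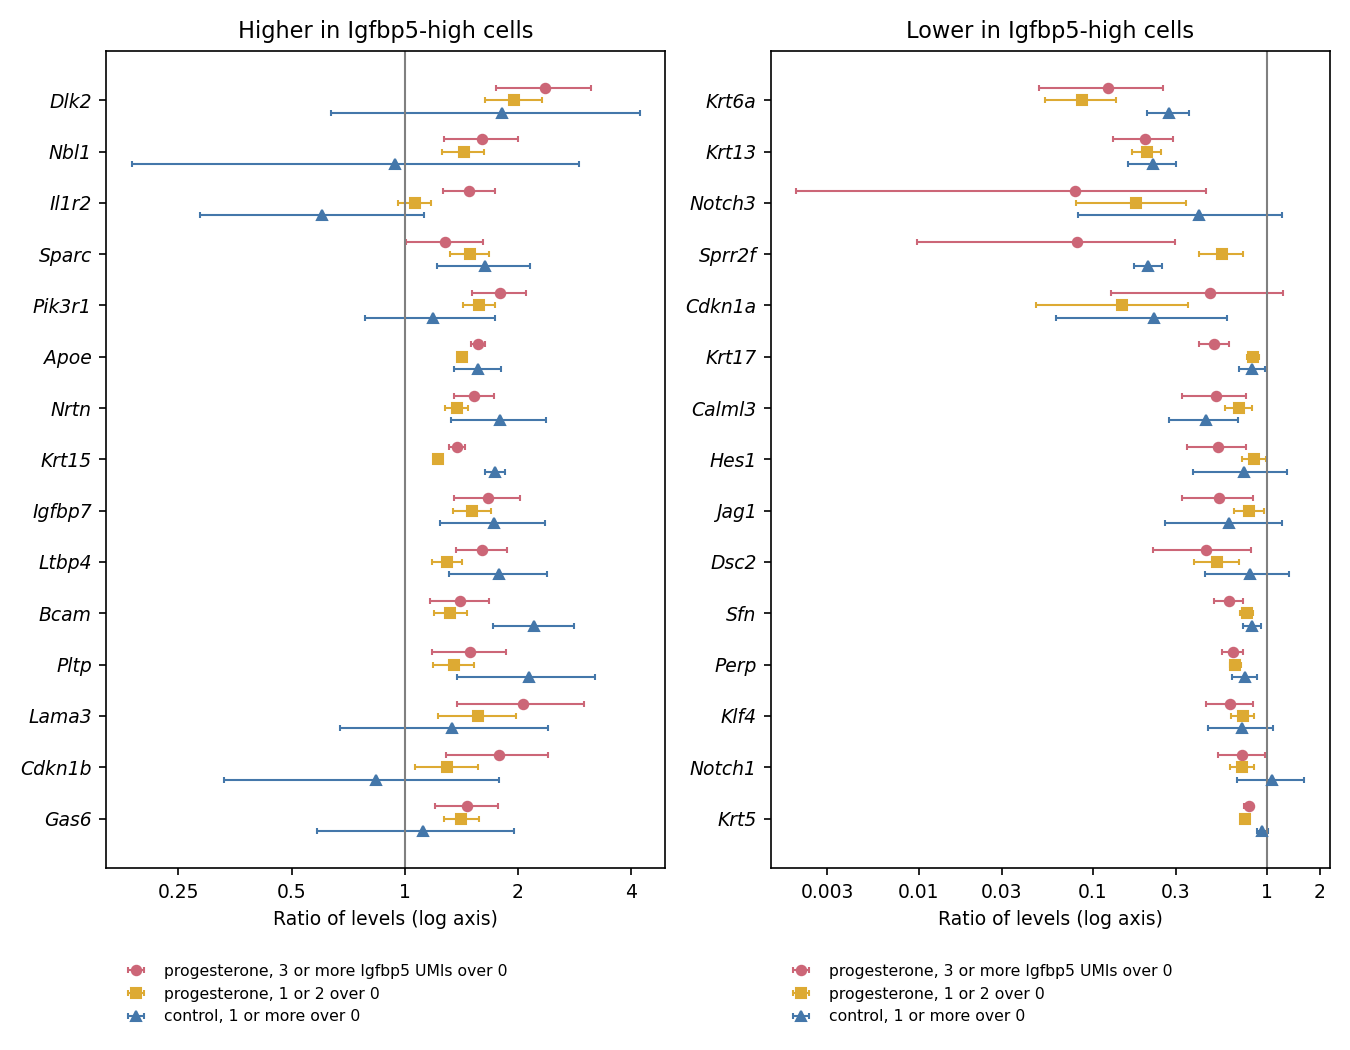
Ratio of levels (log axis) to Igfbp5-zero cells for 15 higher and 15 lower genes, in progesterone cells with 3 or more Igfbp5 UMIs, progesterone cells with 1 or 2 and control cells with 1 or more; points are ratios of summed levels, bars exact 95% conditional intervals, and the vertical line marks 1. The 2 progesterone sets share their zero cells; Krt15, Apoe, Igfbp7 and Ltbp4 lie above 1 in all 3 sets and Krt13 and Krt6a below.

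The gene lists by role are given as counts of members past 2-fold in Igfbp5-high over zero cells of the progesterone library, out of those with at least 50 UMIs, with the median log2 ratio beside 0.08 over all 9194 genes. The background shares of 2.28% and 7.84% apply to each. Of the IGF axis, 0 of 9 members passed 2-fold, with a median of 0.17: the receptor Igf1r had a ratio of 0.779 (0.514 to 1.14), the binding proteins Igfbp2 1.18 (0.808 to 1.67) and Igfbp4 1.11 (0.723 to 1.64), and the protease Htra1 0.727 (0.263 to 1.62). The list also holds Igfbp7, whose ratio of 1.66 is given above, and leaves out Igfbp5. Of the Notch pathway, 1 of 10 was higher (Dlk2) and 2 lower (Notch3 and Hey1), with a median of -0.28. Hey1, a Notch target, rested on 2 UMIs, a ratio of 0.277 (0.0332 to 1.02).

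Of the BMP and TGF-beta genes, 0 of 16 were 2-fold higher and 1 was lower, with a median of 0.20: Tgfbr2, a TGF-beta receptor, had 5 UMIs and a ratio of 0.402 (0.129 to 0.95). Of the WNT genes, 2 of 14 were higher and 0 lower, with a median of 0.48: the ligand Wnt6 had a ratio of 2.15 (1.17 to 3.68) from 15 UMIs and the receptor Lgr6, known from hair follicle stem cells, 2.26 (1.09 to 4.23) from 11. Sfrp1, a secreted WNT inhibitor, had a ratio of 1.44 (1.12 to 1.82) and the related inhibitor Dkk3 1.24 (0.926 to 1.62). Of the interleukin 1 axis, 0 of 7 were higher and 2 lower (Il1b and Il18, 2 and 1 UMIs), with a median of 0.57. The signalling receptor Il1r1 had a ratio of 1.43 (0.638 to 2.80) and its partner Il1rap 1.57 (0.699 to 3.09), both within counting error of 1.

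Among genes that hold the cell to its base, 1 of 12 hemidesmosome and basement membrane genes was higher and 0 lower, with a median of 0.15. The gene was Lama3, a chain of laminin 332, at 65.1 against 31.5 CPM and a ratio of 2.07 (1.38 to 3.0), while Lamb3, another chain, had 1.12 (0.760 to 1.60) and the hemidesmosomal linker Dst 0.835 (0.726 to 0.957). Of 9 matrix genes 0 passed 2-fold, with a median of 0.24 and a ratio of 1.54 (1.10 to 2.11) for the basement membrane collagen Col18a1. Of 14 basal progenitor genes 0 passed 2-fold, with a median of 0.20: the cadherin Cdh3 had a ratio of 1.90 (1.15 to 2.97) and the growth factor receptor Fgfr2 1.39 (0.929 to 2.02).

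Of 14 cell cycle brake genes 0 were higher and 1 was lower, with a median of 0.16. The cyclin-dependent kinase inhibitor Cdkn1b (p27) stood at 96.7 against 54.4 CPM, a ratio of 1.78 (1.28 to 2.41), whereas its relative Cdkn1a (p21), the lower gene, had 4 UMIs and a ratio of 0.470 (0.127 to 1.23). In cells with 1 or 2 Igfbp5 UMIs Cdkn1a had a ratio of 0.147 (0.0471 to 0.350). Gas6, a ligand of the TAM receptors, had a ratio of 1.46 (1.20 to 1.77). Of 16 proliferation genes 0 passed 2-fold in either direction, with a median of 0.33.

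Of 12 squamous differentiation genes 0 were higher and 5 lower (Krt13, Krt6a, Krt17, Dsc2 and Notch3), with a median of -0.84, the lowest of the 14 lists by role. Of 8 steroid response genes 0 passed 2-fold, with a median of 0.43: the estrogen receptor Esr1 had a ratio of 1.36 (1.11 to 1.64) and the progesterone receptor Pgr 0.862 (0.541 to 1.31). Of 13 immediate early and stress genes 0 were higher and 1 lower (Dnajb1, a heat shock co-chaperone), with a median of -0.26, and of 7 retinoid and lipid genes 0 passed 2-fold, with a median of 0.21. Of 13 markers of other cells 0 were higher and 6 lower: the leukocyte genes Lyz2, Cd74 and Tyrobp, the mucin gene Muc5b, Dcn and Sprr2f. These markers and the squamous differentiation genes thus held the largest shares of lower members, while no list by role had more than 2 higher.

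When both libraries were asked for the same direction, the 2 control cells set the limit. Of 6312 genes with at least 50 UMIs in each library, 7 (0.111%) were at least 2-fold higher in Igfbp5-high than zero cells of both: Lama3, Wwp1, Srgn, Mxd1, Gmpr, Hnrnpll and Gm8186, given by name because the count is small, after their values were seen. In the 53 control cells with an Igfbp5 UMI, Lama3 had a ratio of 1.34 (0.674 to 2.41) to zero cells and Wwp1 of 0.409 (0.0832 to 1.23), both with intervals that held 1. At least 2-fold lower in both were 251 (3.98%), of which 244 had 0 UMIs in the 2 control cells, and 11 remained with such genes set to the floor of 3 UMIs. In the control library 94.5% of the genes compared had at most 2 UMIs in these cells.

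By the bound nearest to 1, the genes highest in both libraries were Pik3r1, Apoe, Nrtn, Krt15, Sept7, Tfcp2l1, Pltp, Tmem176b, Bcam, Actb, Rictor and Calr. In the 2 control cells Krt15 had a ratio of 2.81 (2.15 to 3.62), Apoe 3.87 (2.25 to 6.21), Pik3r1 7.40 (2.70 to 16.3) from 6 UMIs and Nrtn 5.88 (2.15 to 12.9) from 6. The phospholipid transfer protein gene Pltp and the transcription factor gene Tfcp2l1 had progesterone ratios of 1.49 (1.18 to 1.85) and 1.60 (1.20 to 2.08) and rested on 3 control UMIs each. Actb and Calr, a structural gene and a chaperone gene, were within 1.34-fold in the progesterone library. The genes lowest in both were Sprr2f, Hbb-bs, Krt6a, Ltf, Sfn, Wfdc18, Gsto1 and Gm42418. Of these, Krt6a had 0 UMIs in the control pair, at least 2.18-fold lower than in control zero cells, and Sfn had 2, a ratio of 0.156 (0.0189 to 0.563).

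The high over zero ratio differed most between the libraries for 5 genes each way. Sh3bgrl3, Lgals7, Fabp5, 1600014C10Rik and Ly6d had the larger ratio with progesterone. For Lgals7 (galectin 7) it was 0.996 (0.929 to 1.07) there and 0.199 (0.0730 to 0.433) in the control, and for the fatty acid binding protein Fabp5 0.955 (0.790 to 1.15) and 0.214 (0.0442 to 0.626). Smap2, Erap1, Shprh, Kcnh1 and Vps52 had the larger ratio in the control, from 2 to 4 UMIs in its 2 cells. The difference between libraries was not tested for any of the 10.

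Progesterone and control Igfbp5-high cells were compared next, although 2 control cells give almost no precision. Of 940 genes with at least 50 UMIs over both, 267 (28.4%) were at least 2-fold higher with progesterone and 178 (18.9%) at least 2-fold lower. Of the 267, 230 had 0 control UMIs, and 37 remained with these set to the floor. The highest by the bound nearest to 1 were 1600014C10Rik, Xist, Sh3bgrl3, Apoe, Malat1, Eef1a1, Lgals7, Anxa2, Gm42418 and Kcnq1ot1. Apoe stood at 4865 with progesterone and 2167 CPM in the control pair, a ratio of 2.24 (1.40 to 3.86). The lowest were S100a9, Dhrs3, Actb, Calr, Cope, Ifitm3, Mif, Ube2h, Prdx6 and Taf10; the interferon-induced Ifitm3 was 3.11-fold (2.20 to 4.27) and the cytokine gene Mif 3.32-fold (2.00 to 5.20) lower.

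The 507 progesterone and 53 control gate cells with at least 1 Igfbp5 UMI allow a comparison on more molecules, which was added after the planned values were seen, as was its rule for naming the 10 genes highest and lowest by the bound nearest to 1. Igfbp5-positive basal cells of the progesterone library held more Nbl1, Il1r2, Apoe, Gas6 and Dlk2 and less Krt6a, Sprr2f, Sfn and Fabp5 than those of the control. The Igfbp5-zero cells of the 2 libraries differed in the same direction for each of these 9 genes, so the differences were not seen in Igfbp5-positive cells alone. Of 5302 genes, 548 (10.3%) were at least 2-fold higher and 290 (5.47%) at least 2-fold lower. The UMI minimum was set on both sets together, 2381509 UMIs with progesterone and 236266 in the control. Genes could thus enter on progesterone UMIs alone: 249 had at most 2 control UMIs and 1 at most 2 progesterone UMIs. Of the 548, 45 had 0 control UMIs, and 526 remained with these set to the floor. Of the 290, 0 had 0 progesterone UMIs. The excess of higher genes is therefore not read as a difference between libraries.

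Among the markers, Nbl1 stood at 167 with progesterone and 12.7 CPM in the control, a ratio of 13.2 (4.47 to 64.1) from 3 control UMIs, and its ratio in zero cells was 8.44 (6.36 to 11.4). Il1r2 stood at 278 and 42.3, a ratio of 6.56 (3.54 to 13.7), with 3.44 (3.02 to 3.92) in zero cells. Dlk2 stood at 99.5 and 25.4, a ratio of 3.92 (1.77 to 10.8), with 3.50 (2.62 to 4.76) in zero cells. Sparc was the exception among the 4 markers, at 187 and 237 CPM and a ratio of 0.790 (0.597 to 1.06). Igfbp5 itself, above 0 in every such cell by selection, had a ratio of 1.38 (1.08 to 1.80).

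Apoe was at 4498 with progesterone and 876 CPM in the control, a ratio of 5.13 (4.47 to 5.92), and 5.53 (5.29 to 5.79) in zero cells. Krt15 had a ratio of 0.759 (0.713 to 0.808) in Igfbp5-positive and 1.05 (1.03 to 1.07) in zero cells. Cldn10, a claudin of tight junctions, Tgm2, a transglutaminase, Slco2a1, a prostaglandin transporter, and Adh7, a retinol-oxidising alcohol dehydrogenase, had 0 UMIs in the 53 control cells. Against a floor of 3 UMIs for the set they were at least 8.96-fold, 8.96-fold, 7.28-fold and 5.26-fold higher, and in zero cells their ratios were 40.4, 2.66, 3.20 and 8.40. The 4 globin genes also led this comparison, on 1 to 3 control UMIs each. Their presence in few cells, given above, applies here, and its part in the result was not tested.

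Among the 10 lowest genes with progesterone were keratin, cornified envelope and antimicrobial genes. Krt6a stood at 11.3 and 229 CPM, 20.2-fold (12.5 to 33.3) lower, and Sprr2f was 22.5-fold (16.3 to 31.4) lower. The antimicrobial genes Ltf and Lcn2 were 8.45-fold (5.07 to 14.0) and 13.6-fold (9.36 to 19.99), Fabp5 6.06-fold (5.30 to 6.92), Sfn 4.59-fold (4.01 to 5.25) and Krt13 3.07-fold (2.12 to 4.36) lower. Sprr2a3, Sprr1a, Wfdc18, Ifitm1 and Gm10036 completed the 10 lowest; the Sprr2 genes and the pseudogene Gm10036 have near-identical copies, and their values are uncertain. Of markers of other cells, leukocyte genes summed to 318 CPM with progesterone and 965 in the control, and fibroblast genes to 36.5 and 4.23. The neutrophil gene S100a9 was 4.88-fold (3.95 to 6.0) lower in Igfbp5-positive and 3.78-fold (3.48 to 4.10) lower in zero cells, and the part of neutrophil transcripts in the antimicrobial genes was not tested.

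By role, and against a median log2 ratio of -0.08 over all 5302 genes and background shares of 10.3% higher and 5.47% lower, 3 of 7 steroid response genes were 2-fold higher and 0 lower (median 0.89): Pgr, the estrogen-regulated Greb1 and the glucocorticoid- and progestin-responsive Tsc22d3. Pgr stood at 52.9 and 16.9 CPM, a ratio of 3.13 (1.19 to 11.6), with 2.54 (2.01 to 3.24) in zero cells. Tsc22d3 rested on 1 control UMI, a ratio of 8.14 (1.42 to 325), and Esr1 had 1.37 (0.979 to 1.96). The zero cells of the 2 libraries thus differed in Pgr in the same direction. Of 12 cell cycle brake genes 5 were higher and 0 lower (median 0.59): Cdkn1b, Cdkn1c, Txnip, Gas6 and Rbl2. Gas6 had a ratio of 4.27 (2.47 to 8.06), Cdkn1b of 2.55 (1.21 to 6.44) and the thioredoxin inhibitor Txnip of 2.41 (1.68 to 3.57), with 3.34, 1.54 and 2.29 in zero cells. In zero cells 4 of 16 brake genes were higher (Cdkn1c, Txnip, Gas6 and Rbl2) and 3 lower (Cdkn1a, Cdkn2b and Nfatc1). Of 14 proliferation genes compared in Igfbp5-positive cells 1 was higher and 0 lower (median -0.07): the cyclin Ccnd2, at 3.62 (2.63 to 5.11).

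Of 10 squamous differentiation genes 0 were higher and 6 lower (Krt13, Krt6a, Sbsn, Dsc2, Sprr1a and Sfn; median -1.23). Of the 14 lists by role this one had the largest share of lower members. Of 6 retinoid and lipid genes 2 were higher (Apoe and the retinoic acid receptor Rarg) and 2 lower (Crabp2 and Fabp5, carriers of retinoic acid and of fatty acids; median -0.95). Of 7 IGF axis genes 1 was higher and 1 lower (median 0.55): Igf1r had a ratio of 3.81 (1.60 to 11.9) and Htra1, a protease that cleaves IGF binding proteins, 0.384 (0.219 to 0.714). In zero cells neither passed 2-fold, and of 10 IGF axis genes 3 were higher (Igfbp6, Irs1 and Irs2) and 0 lower. Within the control library, Igf1r was at least 2-fold lower and Htra1 at least 2-fold higher in the 53 Igfbp5-positive cells than in zero cells. In Igfbp5-positive cells 2 of 7 Notch genes were higher with progesterone (Dlk2 and Dll1, median 0.73), and both interleukin 1 genes compared were (Il1r2 and Il33, median 1.89). Counts of 1 in lists of this size, as in the IGF axis, hemidesmosome, basal progenitor and proliferation lists, are near the background shares. Of 14 BMP and TGF-beta genes 1 was higher (Nbl1) and 2 lower (Id1, a BMP target, and Tgfbi; median -0.05), and of 9 WNT genes 3 were higher (Wnt6, Dkk3 and Sfrp1; median 0.06). Of 9 matrix genes 3 were higher (Thbs1, Fbln2 and Timp3) and 1 lower (Col7a1; median 0.41). Of 11 hemidesmosome and basement membrane genes 1 was higher (Lamb1, median 0.04). Of 9 basal progenitor genes 1 was higher (Cdh3) and 1 lower (Ifitm3, median -0.15). Of 9 stress genes 2 were lower (Jun and Dnajb1, median -0.24). Between the Igfbp5-zero cells of the 2 libraries, 580 of 9762 genes were higher with progesterone and 475 lower. There 7 of 15 squamous differentiation genes were lower and 0 higher. Higher in zero cells were 4 of 8 steroid, 4 of 17 WNT, 4 of 10 matrix, 3 of 10 Notch and 1 of 9 interleukin 1 genes. Lower in the same 5 lists were 1, 1, 1, 0 and 3. Members of these lists thus differed between libraries in zero cells as well.

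**Figure D5:**
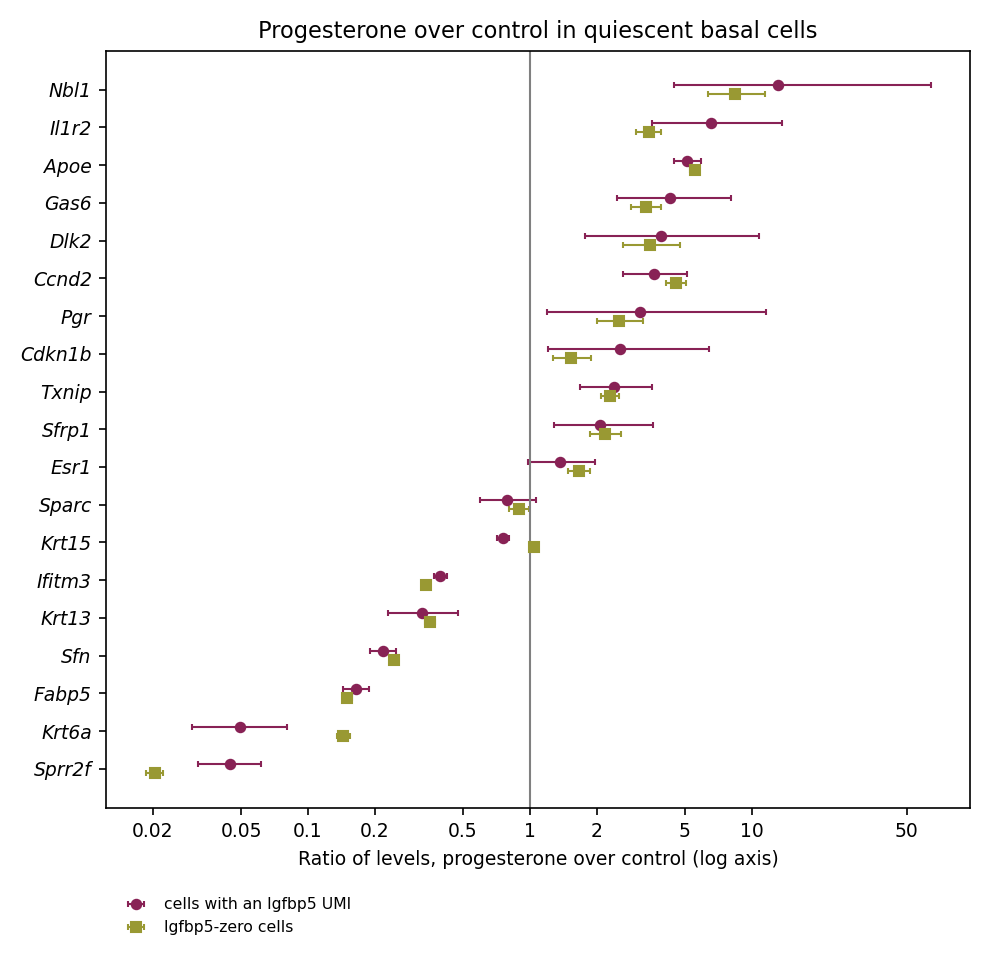
Ratio of levels, progesterone over control (log axis), for 19 genes in quiescent basal cells with an Igfbp5 UMI (507 and 53 cells) and in Igfbp5-zero cells (2021 and 854 cells); points are ratios of summed levels, bars exact 95% conditional intervals, and the vertical line marks 1. Both sets lie on the same side of 1 for all of these genes but Krt15, which is at 0.759 in cells with an Igfbp5 UMI and 1.05 in zero cells.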

How the data were processed

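Raw UMI counts of 31053 genes, not normalized, were taken from the deposited tables of filtered barcodes, for which the submitters' processing notes name Cell Ranger 3.0.2 and mm10. Strand handling in counting is not given in the sources used here. Doublets were kept. Members and gene lists were chosen with earlier results of these data known, and 2 list genes are not reported here. Positions came from GENCODE M21, which held 31011 of the identifiers.

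For each set of cells UMIs were summed and divided by the set's total UMIs to give CPM. Ratios of summed counts carry exact conditional 95% binomial intervals, levels exact Poisson and shares exact Clopper-Pearson intervals. A gene was compared with at least 50 UMIs over the sets, and counted as higher or lower at 2-fold, with 0.5 added to each sum for log2 ratios and a floor of 3 UMIs for bounds. Named genes were the given markers, the 12 highest and 8 lowest in both libraries, the 10 each way between libraries, the 5 each way that differed most, and list members past 2-fold or best counted. Luminal cells were gated on at least 10 UMIs of Krt8 and Krt18 and leukocytes on 3 of Ptprc and Tyrobp. Fibroblasts needed 10 of Col1a1, Col1a2, Col3a1 and Dcn, and endothelial cells 5 of Pecam1, Cdh5, Plvap, Emcn and Egfl7. Each of these sets held few Krt5 and Krt14 UMIs. Cycling squamous cells needed 3 UMIs of the cycling genes and 5 of Krt5 and Krt14, with the basal gate's limits on Krt10, Krtdap, Krt8 and Krt18. Suprabasal cells needed 5 of Krt10 and Krtdap, with its limit on Krt8 and Krt18. Neither squamous set was gated on Col17a1, Itga6, Itgb4 or Trp63. Thinning to 2000 UMIs used 1 seed. Ratio and interval code was tested on simulated data. Python 3.11.15, numpy 2.4.6, scipy 1.17.1, pandas 2.3.3 and scanpy 1.11.5 (Scrublet scores) were used.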

Additional observations from a re-analysis of the deposited data

Results flagged for a closer look

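Among the genes named in the report, 3 had ratios on opposite sides of 1 in the 2 libraries, each with an interval clear of 1, when cells with an Igfbp5 UMI were set against Igfbp5-zero cells, with 53 such cells in the control and 507 with progesterone. 1600014C10Rik had a ratio of 1.14 with progesterone and 0.831 in the control. Sh3bgrl3, a gene of a thioredoxin-fold protein, had 1.07 and 0.692. The order was the other way for Gm42418, a transcript that overlaps ribosomal RNA sequence, at 0.922 and 1.05. None of these ratios reached 2-fold, and the difference between the libraries was not tested for any of the 3.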

How the results depend on the processing

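None of the shares left its interval and no count of genes moved by more than 1.5 times in cells of 3000 to 10000 UMIs, without the highest Scrublet scores, at no more than 10% mitochondrial UMIs, without cells holding a fibroblast UMI, without cells holding 3 globin UMIs (added after seeing the data) or with the mean of each cell's CPM. Values are given below for genes higher and then lower, against 7 and 251 for high over zero in both libraries, 210 and 721 in the progesterone library alone, 267 and 178 for progesterone over control in Igfbp5-high cells and 548 and 290 in cells with an Igfbp5 UMI. With Igfbp5-high set at 2 UMIs the shares were 1.10% in the control and 7.52% with progesterone, the counts 1 (Gm8186) and 77 in both libraries and 107 and 325 in the progesterone library. At 5 UMIs the shares were 0% and 1.07% and the progesterone counts 831 and 1699, while the counts that use control Igfbp5-high cells had no value, there being 0. With classes from cells thinned to 2000 UMIs (high at 2) the progesterone share was 2.61%, 18 genes were higher in both libraries and 488 in the progesterone library, and progesterone over control gave 106 and 50 in high cells and 324 and 167 in cells with a UMI. With Krt8 and Krt18 at 1 UMI or fewer, 13 genes were higher in both libraries, and progesterone over control gave 113 and 79, and 317 and 187. Against zero cells without Krt13 or Krt6a, added after seeing the data, both libraries gave 0 and 14 genes and the progesterone library 117 higher.

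The minimum of UMIs per gene moved every count. With no minimum the 4 pairs, in the order above, were 39 and 3223, 1181 and 5194, 8897 and 1715, and 4808 and 1816. At 200 UMIs they were 0 and 35, 18 and 134, 15 and 9, and 88 and 55. At 500, added after seeing the data, they were 0 and 12, 2 (Dlk2 and Wwp1) and 25, 4 (1600014C10Rik, Apoe, Lgals7 and Xist) and 3 (Actb, Ifitm3 and Tmem176b), and 30 and 18. With mitochondrial, ribosomal protein and the 20 top genes left out of CPM, 4 genes (Hnrnpll, Mxd1, Srgn and Wwp1) were higher in both libraries and 188 lower with progesterone in cells with an Igfbp5 UMI.

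Of single genes, 554 log2 ratios of high over zero cells in the progesterone library, over genes and settings, stayed inside their interval, 51 left it and 0 of those past 2-fold changed side. Over 12 settings Dlk2 ran from 0.88 to 1.27, Apoe from 0.40 to 0.70, Krt15 from 0.40 to 0.55 and Il1r2 from -0.03 to 0.65. Of ratios past 2-fold that use control cells some changed side: with Igfbp5-high at 2 UMIs, Sfn in the control (0.36) and Anxa2 (-0.71) and Lgals7 (-0.012) between libraries. In thinned classes they were Actb (-0.37) and Calr (-0.048) in the control, Anxa2 (-0.066), Kcnq1ot1 (-0.12) and Lgals7 (-0.70) between libraries in high cells, and Wfdc18 (3.01) in cells with a UMI; the cause was not tested. A gene that defines the cells a setting drops has no value under it. No paired analysis was possible because each group is 1 library. Depth limits the control side most, where 2 Igfbp5-high cells held 7844 UMIs.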
